A study of Mus musculus with 6 samples.

Results

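10 genes linked to resident-like scavenger macrophages are described here: Mrc1, Cd163, Stab1, Lyve1 and Folr2, which encode receptors, Fcrls, Fcna, Pf4 and F13a1, which encode secreted or Fc receptor-like proteins, and Cbr2, which encodes an enzyme. They are 10 of the 15487 genes in the deposited expression table, matched by symbol, and they were picked because their values were much lower in Sg-C3 macrophages than in Sg-Con macrophages. The difference between the groups, and the correlation across libraries that it produces, are therefore a description of how the genes were chosen and carry no test.

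The samples are tumour-associated macrophages sorted by flow cytometry on day 15 from implanted tumours of CT26, a mouse colon carcinoma line, in BALB/C mice. There were 3 libraries from tumours labelled Sg-C3 and 3 from tumours labelled Sg-Con, read here as tumour cells carrying a guide RNA against complement C3 or a control guide. The macrophages of all 6 libraries are labelled wild type, so the C3 level in them does not check the labels. The gate of the sort, the site of implantation and whether each library came from a separate animal are not given in the sources used here, so each p-value reflects how far these particular libraries scatter, and that scatter may be technical. Values are FPKM, a read density corrected for transcript length and for sequencing depth. A log2 fold change is the Sg-C3 mean less the Sg-Con mean of log2(FPKM + 1), so it comes out too small for genes of low FPKM. SE is limma's standard error, and each SD is over 3 libraries.

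Macrophages that settle in tissues take up and break down glycoproteins, hemoglobin, hyaluronan and other debris through scavenger receptors, and several of the receptors described here are common markers of such cells. The same cells release clotting, lectin and chemokine proteins that act on matrix and blood. In mouse tissues, Mrc1, Cd163, Lyve1 and Folr2 are often measured together to mark resident or perivascular macrophages, and cytokines such as interleukin 4 and interleukin 10 and glucocorticoids are known to raise several of these genes in cultured macrophages.

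Macrophages from Sg-C3 tumours held much less RNA of all 10 genes. Summed over the genes, the 3 Sg-C3 libraries had 374, 267 and 573 FPKM, against 2519, 4229 and 3397 FPKM in the 3 Sg-Con libraries. The group means were 405 ± 155 FPKM in Sg-C3 and 3382 ± 855 FPKM in Sg-Con, so that the Sg-C3 sum was 11.97% of the Sg-Con sum. All 10 genes passed the filter of at least 1 FPKM in at least 3 libraries, and in all 10 the highest Sg-C3 value lay below the lowest Sg-Con value, as it did for 41.4% of the 11198 tested genes. Since the genes were picked on this contrast, nothing is read from that count. Their log2 fold changes ran from -4.47 for Cbr2 to -2.41 for Mrc1 with a median of -3.30, where the median of all tested genes was -0.16. Among all tested genes, 3.80% had a log2 fold change of -1 or lower and 0.429% had one of -2 or lower, and the 10 genes all lay among the 27 lowest. In bulk samples such as these, fewer cells of a type and less RNA per cell cannot be told apart.

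**Figure D1:**
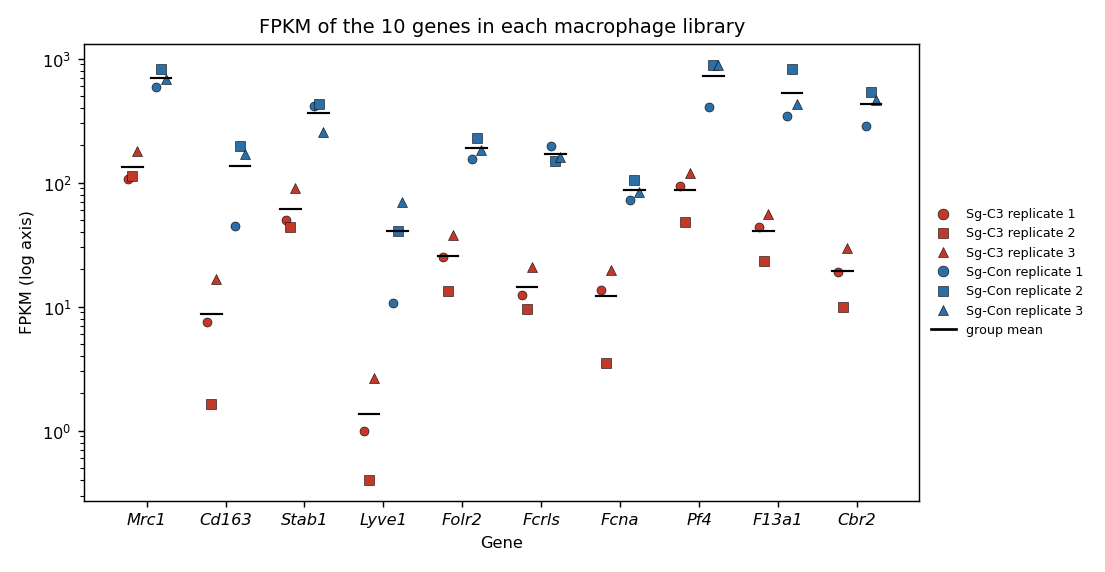
FPKM (log axis) of each of the 10 genes in the 3 Sg-C3 libraries (red, left) and the 3 Sg-Con libraries (blue, right), with marker shape for the replicate and a line for the group mean. For every gene the red points lie below the blue points, with Lyve1 the lowest gene and Sg-C3 replicate 3 the highest red point throughout.

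Promoter sequences of Mrc1, Fcna, Cbr2 and Folr2 are shown because these 4 genes hold all matches among the 10 genes to short motifs of MAF, a factor known to set macrophage identity, or, in Mrc1, 3 matches to the core bound by PU.1, the factor that macrophages need to form. The sequences are RefSeq promoters of mouse build GRCm38.p6, from 250 bases before to 50 bases after the annotated start, on the strand of the gene, and capitals mark matches to GAGGAA (PU.1 core), TGCTGAC or TGCTGAG (MAF motifs) on either strand. Mrc1 lies at chr2:14229164-14229463 (plus strand), Fcna at chr2:25627925-25628224 (minus strand), Cbr2 at chr11:120731972-120732271 (minus strand) and Folr2, of which 1 of its promoters is shown, at chr7:101857141-101857440 (minus strand).
Mrc1: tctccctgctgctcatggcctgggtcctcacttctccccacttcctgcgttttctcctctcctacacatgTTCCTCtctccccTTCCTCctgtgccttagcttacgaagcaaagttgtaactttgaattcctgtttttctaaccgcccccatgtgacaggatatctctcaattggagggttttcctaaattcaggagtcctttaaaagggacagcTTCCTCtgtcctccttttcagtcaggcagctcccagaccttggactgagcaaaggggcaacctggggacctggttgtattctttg
Fcna: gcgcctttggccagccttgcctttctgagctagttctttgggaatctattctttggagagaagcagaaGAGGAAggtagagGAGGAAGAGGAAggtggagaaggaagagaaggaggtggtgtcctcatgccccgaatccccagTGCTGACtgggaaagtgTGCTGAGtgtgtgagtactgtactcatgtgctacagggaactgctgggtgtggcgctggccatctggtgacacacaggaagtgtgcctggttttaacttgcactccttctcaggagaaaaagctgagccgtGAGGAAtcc
Cbr2: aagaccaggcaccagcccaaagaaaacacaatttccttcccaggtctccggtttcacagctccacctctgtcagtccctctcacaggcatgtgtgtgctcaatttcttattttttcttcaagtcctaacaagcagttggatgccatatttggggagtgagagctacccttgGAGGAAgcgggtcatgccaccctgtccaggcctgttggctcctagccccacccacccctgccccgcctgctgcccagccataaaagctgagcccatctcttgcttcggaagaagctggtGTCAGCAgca
Folr2: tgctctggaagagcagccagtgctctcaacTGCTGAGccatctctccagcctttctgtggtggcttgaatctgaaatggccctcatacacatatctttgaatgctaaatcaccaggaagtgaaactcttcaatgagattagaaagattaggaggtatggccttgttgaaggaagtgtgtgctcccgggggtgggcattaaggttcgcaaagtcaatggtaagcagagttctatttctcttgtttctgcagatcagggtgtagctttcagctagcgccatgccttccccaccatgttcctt

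The RefSeq table held 11 promoters for 9 of the genes, and Lyve1 was not matched. GAGGAA, searched on both strands, was in 8 of the 11 promoters, those of 7 genes, and in 28.3% of the 32851 promoters of the table. Mrc1 carried it at -180, -167 and -35 from the start, and Fcna at -182, -169, -163 and 42, while the Cd163 and Folr2 promoters had no match. TGCTGAC was in 2 of the 11 promoters, Fcna at -107 and Cbr2 at 41, and in 4.67% of all promoters. TGCTGAG was also in 2, Fcna at -90 and Folr2 at -220, and in 7.84% of all promoters. The other motifs searched were the CCAAT box (CCAAT, 6 of 11 and 37.4% of all promoters), the TATA box (TATAAA, 1 of 11 and 13.6%), a C/EBP site (TTGCNNAA, 1 of 11 and 10.8%), an AP-1 site (TGANTCA, 1 of 11 and 7.81%) and STAT6 spacing (1 of 11 and 6.95%). An AP-1 site can share letters with the end of a MAF motif, and the AP-1 match, at -74 of a Folr2 promoter, is in another promoter of that gene than the one shown. An interferon response core (3.44%), STAT spacing (TTCNNNGAA, 8.30%), an E-box (CACGTG, 7.15%) and a glucocorticoid receptor motif (ACANNNTGT, 6.85%) had 0 matches in the 11 promoters. These are matches of letters in a short window, and they say nothing of whether a factor binds there.

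Among the receptors, Mrc1, the mannose receptor that takes up glycoproteins ending in mannose, was the most abundant in both groups. It had 107, 114 and 179.6 FPKM in the Sg-C3 libraries, against 589, 826 and 685 FPKM in the Sg-Con libraries. The groups were far apart, and Sg-C3 replicate 3 stood above the other Sg-C3 libraries. The means were 134 ± 40.0 FPKM in Sg-C3 and 700 ± 119 FPKM in Sg-Con (log2 fold change -2.41, SE 0.21), the smallest difference of the 10 genes. Mrc1 therefore made up 33.0% of the summed FPKM of the 10 genes in Sg-C3 and 20.7% in Sg-Con. Even so, it remained at the 96.1st percentile of all genes of the table in Sg-C3, against the 99.3rd percentile in Sg-Con. Each is the mean of the percentiles in the 3 libraries of a group.

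Cd163, the receptor for hemoglobin bound to haptoglobin, had the largest SE of the 10 genes and the widest spread within Sg-C3. Its values were 7.54, 1.64 and 16.8 FPKM in the Sg-C3 libraries, against 45.1, 195.8 and 171 FPKM in the Sg-Con libraries. Sg-C3 replicate 2 was far below the other Sg-C3 libraries and Sg-Con replicate 1 far below the other Sg-Con libraries, but the groups did not overlap. The lowest Sg-Con value was 2.69 times the highest Sg-C3 value, the narrowest gap of the 10 genes. Means were 8.65 ± 7.63 FPKM in Sg-C3 and 137 ± 80.8 FPKM in Sg-Con (log2 fold change -3.97, SE 0.78). Leaving out Sg-C3 replicate 2 gave a log2 fold change of -3.23, leaving out Sg-C3 replicate 3 gave -4.61, and leaving out Sg-Con replicate 1 gave -4.64.

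Stab1 encodes stabilin-1, a scavenger receptor for modified lipoproteins and matrix fragments. Stab1 had 50.3, 44.0 and 90.3 FPKM in the Sg-C3 libraries, against 412, 429.7 and 256 FPKM in the Sg-Con libraries. Sg-C3 replicate 3 and Sg-Con replicate 3 came nearest to each other, without overlap. The means were 61.5 ± 25.1 FPKM in Sg-C3 and 366 ± 95.8 FPKM in Sg-Con (log2 fold change -2.59, SE 0.30).

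Lyve1, a hyaluronan receptor of lymphatic endothelium and of perivascular macrophages, was the least abundant of the 10 genes. Lyve1 had 1.00, 0.40 and 2.67 FPKM in the Sg-C3 libraries, against 10.7, 40.7 and 70.1 FPKM in the Sg-Con libraries. The groups did not overlap, and both spread widely, with the highest library 6.68 times the lowest in Sg-C3 and 6.54 times the lowest in Sg-Con. The mean was 1.36 ± 1.18 FPKM in Sg-C3 and 40.5 ± 29.7 FPKM in Sg-Con (log2 fold change -3.91, SE 0.65), or -4.65 without Sg-Con replicate 1 and -4.77 with a pseudocount of 0.1. As a ratio of mean FPKM, Sg-Con was 29.8 times Sg-C3, the widest of the 10. The Sg-C3 values correspond to roughly 50, 22 and 143 reads, against 591, 2150 and 3834 reads in Sg-Con, estimated from the longest coding transcript and the depths below.

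Lyve1 has another known source, lymphatic endothelium. Of the 6 markers of that endothelium, 3 were in the table, and they summed to between 72.5 and 92.3 FPKM in Sg-C3 and between 123 and 395 FPKM in Sg-Con. Nearly all of that was Pdpn, which macrophages can also express, at 84.0 ± 10.6 FPKM in Sg-C3 and 292 ± 148 FPKM in Sg-Con (limma adjusted p = 0.0181). Flt4, which defines that endothelium together with Prox1, averaged 0.510 FPKM in Sg-C3 and 0.113 FPKM in Sg-Con, and Ccl21a averaged 0.0200 FPKM in Sg-C3 and 0.0433 FPKM in Sg-Con. Prox1 was looked up and not found in the expression table, and the part of lymphatic endothelium in the Lyve1 difference was not tested.

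Folr2, the folate receptor beta of macrophages, had 25.2, 13.4 and 37.6 FPKM in the Sg-C3 libraries, against 156, 228 and 184 FPKM in the Sg-Con libraries. Sg-C3 replicate 3 was again highest and replicate 2 lowest of their group, and all 3 lay well below Sg-Con. The means were 25.4 ± 12.1 FPKM in Sg-C3 and 189 ± 36.0 FPKM in Sg-Con (log2 fold change -2.94, SE 0.33).

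Fcrls, a mouse gene of the Fc receptor-like family whose protein also carries a scavenger receptor domain, had the tightest Sg-Con values. It stood at 12.3, 9.59 and 20.9 FPKM in the Sg-C3 libraries, against 198, 150.4 and 160.3 FPKM in the Sg-Con libraries. The lowest Sg-Con library was 7.19 times the highest Sg-C3 library, and Sg-Con replicate 1, which was lowest for most of the genes, was highest here. The means were 14.3 ± 5.92 FPKM in Sg-C3 and 169.6 ± 25.1 FPKM in Sg-Con (log2 fold change -3.54, SE 0.26).

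Fcna encodes ficolin A, a secreted lectin that binds sugars on microbes and starts the lectin pathway of complement. Fcna had 13.6, 3.49 and 19.7 FPKM in the Sg-C3 libraries, against 72.5, 105 and 84.2 FPKM in the Sg-Con libraries. Sg-C3 replicate 2 stood well below the rest of its group, while the Sg-Con libraries lay close together and above all Sg-C3 libraries. The means were 12.3 ± 8.19 FPKM in Sg-C3 and 87.2 ± 16.4 FPKM in Sg-Con (log2 fold change -2.98, SE 0.51), or -2.33 without Sg-C3 replicate 2.

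F13a1 encodes the A subunit of coagulation factor XIII, the transglutaminase that cross-links fibrin. F13a1 had 43.7, 23.3 and 55.7 FPKM in the Sg-C3 libraries, against 342, 825 and 430.1 FPKM in the Sg-Con libraries. Sg-Con replicate 2 was well above the other Sg-Con libraries, and no Sg-C3 library came near the lowest of them. The means were 40.9 ± 16.4 FPKM in Sg-C3 and 532 ± 257 FPKM in Sg-Con (log2 fold change -3.65, SE 0.40).

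Pf4 encodes platelet factor 4, a heparin-binding chemokine of platelets that macrophages can express too. Pf4 had 94.1, 47.8 and 120.3 FPKM in the Sg-C3 libraries, against 405, 889 and 892 FPKM in the Sg-Con libraries. Sg-Con replicate 1 was the low library of its group, still above every Sg-C3 library. The means were 87.4 ± 36.7 FPKM in Sg-C3 and 729 ± 280.2 FPKM in Sg-Con (log2 fold change -3.05, SE 0.41), and Pf4 made up 21.6% of the summed FPKM of the 10 genes in either group.

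Platelets were looked for because they hold Pf4 and F13a1 RNA. Of 12 platelet and megakaryocyte markers, 10 were in the table, and they summed to between 5.58 and 6.87 FPKM in Sg-C3 and between 10.5 and 15.7 FPKM in Sg-Con. Ppbp, a chemokine gene related to Pf4, accounted for most of the Sg-Con sum, at 0.930 ± 0.562 FPKM in Sg-C3 and 9.23 ± 2.22 FPKM in Sg-Con (log2 fold change -2.43, limma adjusted p = 0.00162). Gp9, a subunit of the platelet receptor for von Willebrand factor, averaged 0.277 FPKM in Sg-C3 and 0.157 FPKM in Sg-Con. Treml1, a receptor of platelet granules, moved with Pf4 at a low level, with 0.10, 0.09 and 0.22 FPKM in the Sg-C3 libraries, against 0.740, 0.980 and 0.900 FPKM in the Sg-Con libraries. Without a filter, 2 of the 10 markers were lower and 3 were higher, where 3422 of all 15487 genes were lower and 1551 higher. Of the 10, 6 stayed under 1 FPKM in every library. No marker of the list was at 0 in all libraries. The part of platelets in the Pf4 and F13a1 differences was not tested.

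Cbr2, the only enzyme outside clotting among the 10, encodes a carbonyl reductase that uses NADPH to reduce carbonyl compounds. Cbr2 had 19.1, 9.91 and 29.4 FPKM in the Sg-C3 libraries, against 288, 540.5 and 466 FPKM in the Sg-Con libraries. The gap was the widest of the set, since the lowest Sg-Con library was 9.79 times the highest Sg-C3 library. The means were 19.5 ± 9.77 FPKM in Sg-C3 and 431 ± 129.6 FPKM in Sg-Con (log2 fold change -4.47, SE 0.38), the lowest log2 fold change of all 11198 tested genes. Cbr2 made up 4.81% of the summed FPKM of the 10 genes in Sg-C3 and 12.8% in Sg-Con.

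Within each group the 10 genes tended to move together from library to library, a spread that the difference between the groups does not enter. Sg-C3 replicate 3 was the highest Sg-C3 library for 10 of 10 genes, and Sg-C3 replicate 2 the lowest for 9, the exception being Mrc1, lowest in replicate 1. Over all tested genes, Sg-C3 replicate 3 was highest for 43.9% and Sg-C3 replicate 2 lowest for 42.7%. In each group, replicate 3 has a sample title of another style than replicates 1 and 2. The part of title style in this spread was not tested. In Sg-Con, replicate 2 was highest for 7 of the genes and replicate 1 lowest for 8, against 25.2% and 28.6% of all tested genes. Averaged over the 10 genes on the log2 scale, Sg-C3 replicates 1, 2 and 3 deviated by 0.04, -0.75 and 0.70 from their group mean, and Sg-Con replicates 1, 2 and 3 by -0.49, 0.35 and 0.14.

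**Figure D2:**
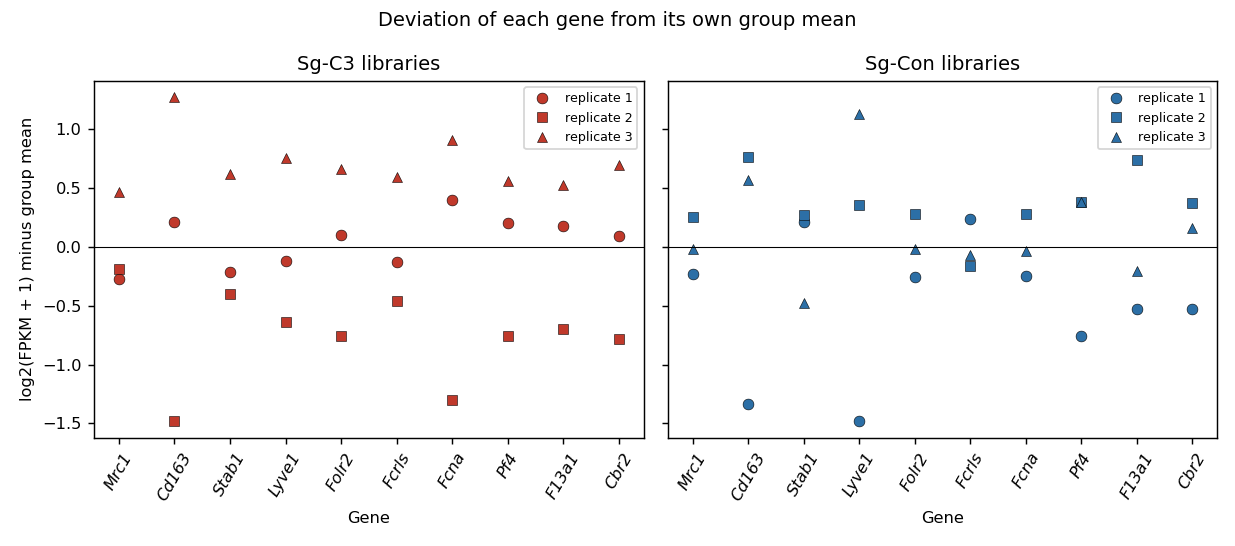
Deviation of log2(FPKM + 1) of each gene from its own group mean, for the 3 Sg-C3 libraries (left) and the 3 Sg-Con libraries (right). In Sg-C3 the triangles of replicate 3 lie above 0 for all 10 genes and the squares of replicate 2 below 0 for all 10, and in Sg-Con replicate 1 lies below 0 for 8 of 10.

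Correlations between the genes are given as descriptions over 6 libraries that share their groups and library preparation. Across all 6 libraries the 45 pairs had Pearson r of log2 values between 0.87 and 1.00 with a median of 0.97, which the difference between the groups produces. After each group mean was taken away, the median was 0.74, and 44 of the 45 pairs were above 0 and 38 above 0.5. The closest pair was Cd163 and Pf4 (r = 0.99), and the least related was Lyve1 and Stab1 (r = -0.00058). By their median with the other 9 genes, Cbr2 (0.91), Cd163 (0.87) and Folr2 (0.87) followed the set most closely, and Lyve1 (0.62), Stab1 (0.60) and Fcrls (0.56) least. The other tested genes had a median r of 0.09 with the mean of the 10 genes after the same centring. Only 3 libraries per group lie behind each of these values.

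Genes outside the set with the most similar profile were found by the root mean square difference between centred log2 values over the 6 libraries. Centring was on the mean of all 6 libraries, so the group difference on which the 10 genes were picked enters this measure. The 10 outside genes nearest to the mean had log2 fold changes between -3.44 and -2.31, and the ranking carries no test. Chil3, which encodes the chitinase-like protein Ym1, was nearest to the mean of the 10 genes (0.40). It had 8.51, 2.38 and 10.6 FPKM in the Sg-C3 libraries, against 29.0, 98.4 and 53.5 FPKM in the Sg-Con libraries, with replicate 2 lowest in Sg-C3 and highest in Sg-Con as for most of the 10 genes. It was followed by the keratin gene Krt8 (0.43), Pmp22 (0.44), Tmem8 (0.45), Dmp1 (0.48), the leukotriene C4 synthase gene Ltc4s (0.50), Ctla2b (0.51), the organic anion transporter gene Slco2b1 (0.52), the keratin gene Krt20 (0.52) and Ecm1 (0.55). The nearest gene to Mrc1 was the sialyltransferase gene St6gal1 (0.11), to Stab1 the glucocorticoid-induced Fkbp5 (0.17), to Folr2 Ltc4s (0.30), to Fcna Krt20 (0.31), to Pf4 Chil3 (0.31), to F13a1 Krt8 (0.35) and to Fcrls Slco2b1 (0.35). Cd163 was nearest to Arg1, the arginine-degrading enzyme (0.51), Lyve1 to Pmp22 (0.58) and Cbr2 to Krt8 (0.67). Krt8 is an epithelial gene. The 7 epithelial tumour cell markers summed to between 2.43 and 3.15 FPKM in Sg-C3 and between 16.3 and 29.95 FPKM in Sg-Con. Krt8 itself averaged 0.323 ± 0.0551 FPKM in Sg-C3 and 14.3 ± 6.73 FPKM in Sg-Con. It made up most of the sum in Sg-Con only. Every Sg-C3 value of Krt8 was under 1 FPKM, so it passed the filter through its Sg-Con values alone. The part of tumour cell RNA in these values was not tested.

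Other genes known from resident macrophages were mixed. Of 35 such genes outside the set, 29 were tested, 13 were lower in Sg-C3, 3 were higher and 13 were not called at a limma adjusted p below 0.05. Over all tested genes 44.4% were called, 31.7% lower and 12.7% higher. The list had a median log2 fold change of -0.71, or -0.55 relative to the median of all tested genes, far from the -3.30 of the 10 chosen genes. A log2 fold change of -1 or lower was found in 12 of the 29 genes, and in 3.80% of all tested genes. Leaving out Sg-Con replicate 1 gave 5 higher genes in place of 3.

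Slco2b1 fell most in that list. Its values were 0.260, 0.180 and 0.740 FPKM in the Sg-C3 libraries, against 11.9, 9.62 and 7.49 FPKM in the Sg-Con libraries (log2 fold change -2.94, limma adjusted p = 7.8e-04). Every Sg-C3 library was under 1 FPKM, so the gene passed the filter through its Sg-Con values alone and had to differ, and it was not tested when an Sg-Con library was left out. Ltc4s fell to 1.63 ± 0.887 FPKM in Sg-C3, against 12.6 ± 2.42 FPKM in Sg-Con (log2 fold change -2.41, limma adjusted p = 0.00163). Gas6, a bridging protein that links dying cells to the receptor Mertk, fell to 19.3 ± 5.19 FPKM in Sg-C3, against 94.1 ± 25.0 FPKM in Sg-Con (log2 fold change -2.23, limma adjusted p = 0.00153). Its receptor gene Mertk was lower as well, at 13.7 ± 6.63 FPKM in Sg-C3 and 42.3 ± 10.1 FPKM in Sg-Con. Vsig4, a complement receptor of tissue macrophages that binds C3 fragments, had 0.360, 0.0400 and 1.10 FPKM in the Sg-C3 libraries, against 2.13, 7.30 and 17.2 FPKM in the Sg-Con libraries (log2 fold change -2.44, limma adjusted p = 0.0158). That call was lost without Sg-C3 replicate 1 (adjusted p = 0.0520, limma) and on leaving out Sg-C3 replicate 2 (adjusted p = 0.0603, limma), and the log2 fold change became -1.83 when Sg-Con replicate 3 was left out, -3.10 when Sg-Con replicate 1 was left out and -3.95 with a pseudocount of 0.1.

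Some resident macrophage genes went the other way. Timd4, a receptor for phosphatidylserine on dying cells and a common marker of long-lived macrophages, had 15.5, 22.3 and 23.4 FPKM in the Sg-C3 libraries, against 1.87, 0.720 and 2.23 FPKM in the Sg-Con libraries. All Sg-C3 libraries were far above all Sg-Con libraries (log2 fold change 3.07, limma adjusted p = 0.00107). The chemokine genes Ccl8 and Ccl24 rose too, Ccl8 to 501 ± 25.4 FPKM in Sg-C3, against 102 ± 42.8 FPKM in Sg-Con (log2 fold change 2.39, limma adjusted p = 0.00235), and Ccl24 by a log2 fold change of 1.45 (limma adjusted p = 0.00363). The complement genes C1qa, C1qb and C1qc, which most macrophages express, were not called, with log2 fold changes of -0.19, -0.15 and -0.19. Apoe, a lipid carrier gene, had 5494 ± 957 FPKM in Sg-C3 and 5765 ± 571 FPKM in Sg-Con and was not called either.

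**Figure D3:**
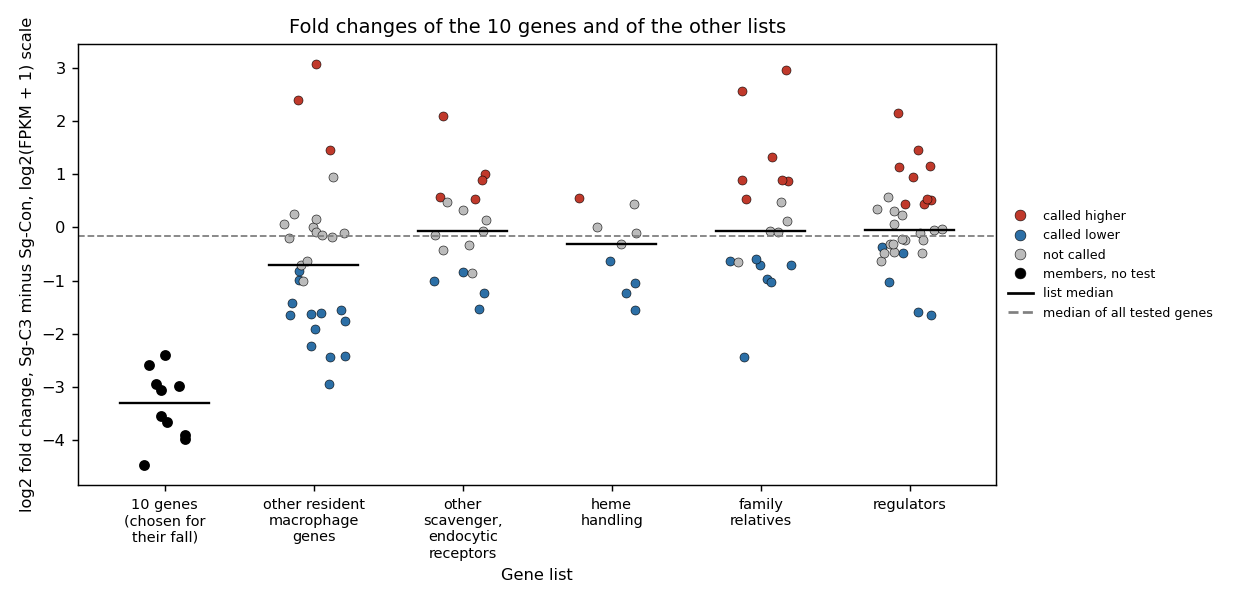
Log2 fold change, Sg-C3 minus Sg-Con on the log2(FPKM + 1) scale, of the 10 chosen genes (black, no test) and of the tested genes of 5 other lists, with genes called higher in red, called lower in blue and not called in grey. Short lines are list medians and the dashed line is the median of all tested genes (-0.16). The lowest gene of the other lists, Slco2b1 at -2.94, lies within the range of the 10 genes, and each of the other lists holds genes called in both directions.

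Scavenger and endocytic receptors outside the set did not share the difference as a class. Of 25 listed, 21 were in the table and 17 were tested. The calls were 4 lower (23.5%, and 31.7% of all tested genes), 5 higher (29.4%, and 12.7% of all) and 8 not called. The median log2 fold change was -0.07 (0.09 relative to all tested genes). The lower ones were Colec12 (34.6 ± 6.36 FPKM in Sg-C3 and 102 ± 15.5 FPKM in Sg-Con, log2 fold change -1.54), the endocytic receptor gene Lrp1 (-1.24), the scavenger receptor A gene Msr1 (-1.01) and the lysosomal membrane gene Cd68 (-0.85), with limma adjusted p values of 0.00162, 0.00223, 0.00257 and 0.00194. Clec7a, which encodes the beta-glucan receptor dectin-1, rose to 184.5 ± 38.5 FPKM in Sg-C3, against 44.1 ± 15.3 FPKM in Sg-Con (log2 fold change 2.08, limma adjusted p = 0.00257). Scarf2, Ly75, Cxcl16 and Mrc2 were the other higher genes, with log2 fold changes of 0.99, 0.89, 0.56 and 0.54, and Ly75 passed the filter through its Sg-C3 values alone. Leaving out Sg-C3 replicate 1 or replicate 2 left 3 higher genes of 16 tested, and a filter at a mean of 5 FPKM left 2 of 11.

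Paralogs and partners of the 10 genes often differed from them in direction. Of 38 listed, 30 were in the table and 19 were tested. The calls were 7 lower (36.8%, and 31.7% of all tested genes), 7 higher (36.8%, and 12.7% of all) and 5 not called. The median log2 fold change was -0.07 (0.09 relative to all tested genes). Of the higher genes, Ly75 and Fcrl1 passed the filter through their Sg-C3 values alone. The higher count was 3 of 17 tested genes when Sg-C3 replicate 1 or replicate 2 was left out. It was 3 of 12 under a filter at a mean of 5 FPKM, and 4 of 19 when Sg-Con replicate 1 was left out. The mannose receptor family members Mrc2 and Ly75 rose by log2 fold changes of 0.54 and 0.89, at low levels, beside the -2.41 of Mrc1. Fcrl5, a relative of Fcrls best known from B cells, had 13.3, 8.96 and 17.9 FPKM in the Sg-C3 libraries, against 1.14, 0.200 and 1.21 FPKM in the Sg-Con libraries (log2 fold change 2.96, limma adjusted p = 0.00157). Fcrl5 and Fcrls were thus separated between the groups in opposite directions. Fcrlb, another relative, had 21.0 ± 4.28 FPKM in Sg-C3 and 47.0 ± 24.0 FPKM in Sg-Con (log2 fold change -1.03, limma adjusted p = 0.0395), and its call was lost with no filter, under either other scaling (quantile or median-ratio), with title style as a covariate and when replicate 1 or 2 of either group was left out (limma adjusted p between 0.0514 and 0.115). The 5 B cell markers summed to between 4.72 and 6.91 FPKM in Sg-C3 and between 1.76 and 4.62 FPKM in Sg-Con, and their part in the Fcrl5 difference was not tested.

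The transglutaminase genes also split. Tgm2, the tissue transglutaminase, had 670.4, 629.9 and 578 FPKM in the Sg-C3 libraries, against 221, 242 and 295 FPKM in the Sg-Con libraries (log2 fold change 1.31, limma adjusted p = 0.0013), where F13a1 had a log2 fold change of -3.65. Every Sg-C3 library held more Tgm2 than any Sg-Con library. Tgm1 fell by 0.64 on the log2 scale (limma adjusted p = 0.0275). Among the CXC chemokines, Ppbp was lower like Pf4, Cxcl5 rose to 29.6 ± 14.0 FPKM in Sg-C3, against 4.17 ± 2.51 FPKM in Sg-Con (log2 fold change 2.56, limma adjusted p = 0.00476), and Cxcl3 was not called. Beside Cxcl5, the 10 neutrophil markers summed to between 394 and 1347 FPKM in Sg-C3 and between 163 and 233 FPKM in Sg-Con. Of these, 4 of 8 tested markers were higher (12.7% of all tested genes were), and 0 were at 0 in all libraries. Their part in the result was not tested. The carbonyl reductase relatives Dcxr, Cbr1 and Cbr4 fell by 0.97, 0.70 and 0.59 on the log2 scale, Cbr3 was not called (0.11), and Cd44, the main hyaluronan receptor of leukocytes, had 290.2 ± 37.0 FPKM in Sg-C3 and 305 ± 34.2 FPKM in Sg-Con and was not called. Slc19a1, the reduced folate carrier, fell to 3.80 ± 0.291 FPKM in Sg-C3, against 6.84 ± 1.03 FPKM in Sg-Con (log2 fold change -0.70, limma adjusted p = 0.00597).

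**Figure D4:**
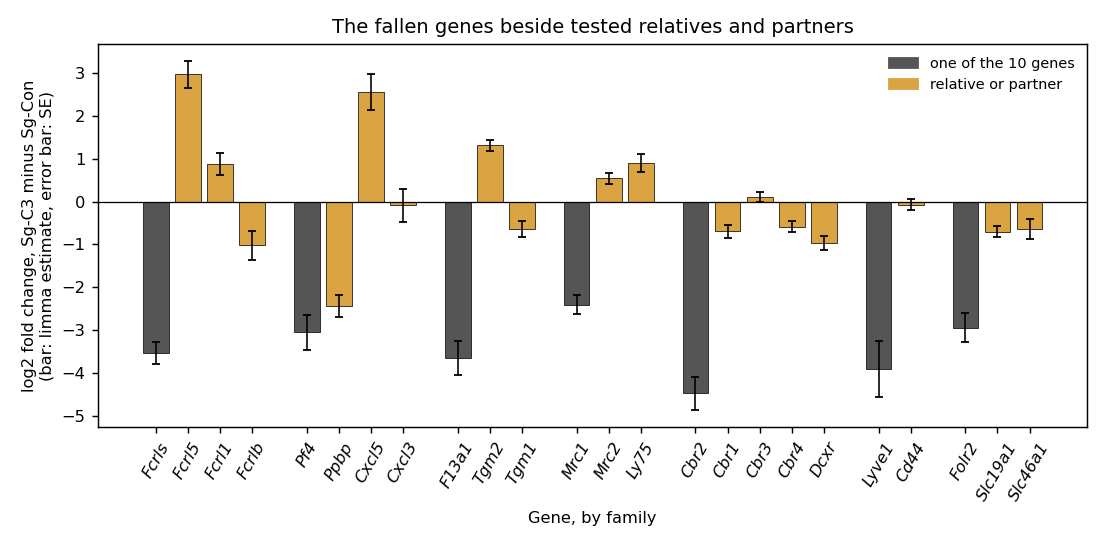
Log2 fold change with SE, Sg-C3 minus Sg-Con on the log2(FPKM + 1) scale, of 7 of the 10 genes (dark bars) beside their tested relatives or partners (yellow bars), grouped by family. Ppbp (-2.43) lies nearest to its dark bar, while Fcrl5 (2.96), Cxcl5 (2.56) and Tgm2 (1.31) point the other way.

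Genes that handle heme, the cargo of Cd163, did not move as a class. Of 10 listed, 9 were in the table and tested. The calls were 4 lower (31.7% of all tested genes were), 1 higher (12.7% of all) and 4 not called. Their median log2 fold change was -0.31 (-0.14 relative to all tested genes), and 3 of the 9 were at -1 or lower, as were 3.80% of all tested genes. Hmox1, the heme oxygenase that opens the heme ring, had 181, 172 and 172 FPKM in the Sg-C3 libraries, against 475, 324 and 886 FPKM in the Sg-Con libraries. The Sg-C3 libraries were nearly equal and the Sg-Con libraries spread widely above them (log2 fold change -1.55, limma adjusted p = 0.00936). Blvra, the biliverdin reductase of the next step, fell by 1.05 on the log2 scale (limma adjusted p = 0.00223), Slc48a1, a transporter that moves heme out of lysosomes, by 0.63 (limma adjusted p = 0.0132), and Lrp1, the receptor for heme bound to hemopexin, by 1.24. Fth1, the ferritin heavy chain that stores iron, was higher, at 6731 ± 996 FPKM in Sg-C3 and 4609 ± 574 FPKM in Sg-Con (log2 fold change 0.54, limma adjusted p = 0.0219). That call was lost after quantile normalization (log2 fold change 0.17, limma adjusted p = 0.418) and when replicate 1 or 2 of either group was left out (limma adjusted p between 0.0509 and 0.0717). The iron exporter gene Slc40a1 was not called, with 32.4 FPKM in Sg-Con replicate 1 and between 1.38 and 5.72 FPKM in the other 5 libraries.

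Of 32 transcription factors, cytokines and receptors known to act on macrophage identity, 31 were tested. The calls were 5 lower (16.1%, and 31.7% of all tested genes), 9 higher (29.0%, and 12.7% of all) and 17 not called. The median log2 fold change was -0.06 (0.11 relative to all tested genes). Maf had 13.2, 12.97 and 22.3 FPKM in the Sg-C3 libraries, against 56.7, 62.8 and 37.8 FPKM in the Sg-Con libraries, with no overlap. The means were 16.2 ± 5.33 FPKM in Sg-C3 and 52.4 ± 13.02 FPKM in Sg-Con (log2 fold change -1.65, limma adjusted p = 0.00394). Mef2c fell to 2.75 ± 1.17 FPKM in Sg-C3, against 10.04 ± 1.98 FPKM in Sg-Con (log2 fold change -1.59, limma adjusted p = 0.00349). Klf4, a factor active in alternatively activated macrophages, fell by 1.02 on the log2 scale (limma adjusted p = 0.0187), a call lost when Sg-C3 replicate 1 or 2, or Sg-Con replicate 2, was left out (limma adjusted p between 0.0535 and 0.0617). Stat6, which acts downstream of interleukin 4, had 50.9 ± 7.11 FPKM in Sg-C3 and 71.6 ± 7.28 FPKM in Sg-Con (log2 fold change -0.49, limma adjusted p = 0.0195), and its call was lost after median-ratio scaling (limma adjusted p = 0.0914) and when replicate 1 or 2 of either group was left out (limma adjusted p between 0.0560 and 0.0725).

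Cytokine genes linked to this program were not lower. Il10 had 716, 955 and 737 FPKM in the Sg-C3 libraries, against 289.6, 368 and 452 FPKM in the Sg-Con libraries (log2 fold change 1.13, limma adjusted p = 0.00467), so all Sg-C3 libraries were higher. Il4 had 2.40, 1.78 and 1.17 FPKM in the Sg-C3 libraries, against 0.00, 0.00 and 0.880 FPKM in the Sg-Con libraries (log2 fold change 1.15, limma adjusted p = 0.0163), a call lost without Sg-Con replicate 2 (limma adjusted p = 0.0505). Il4 passed the filter through its Sg-C3 values alone, and it was not tested when any Sg-C3 library was left out or under a filter at a mean of 5 FPKM. Beside Il4, the 6 mast cell markers summed to between 4.99 and 11.9 FPKM in Sg-C3 and between 0.980 and 1.79 FPKM in Sg-Con. Both tested markers, Kit and Tpsb2, were higher, but they passed the filter through their Sg-C3 values alone. The part of mast cells in the Il4 difference was not tested. Pparg, a lipid-sensing nuclear receptor, rose to 9.16 ± 2.03 FPKM in Sg-C3, against 2.99 ± 1.76 FPKM in Sg-Con (log2 fold change 1.45, limma adjusted p = 0.0179), with a limma adjusted p of 0.0540 without Sg-C3 replicate 1. The receptor genes Csf1r and Il4ra were not called (limma adjusted p = 0.0791 and 0.854). Spic, a factor of red pulp macrophages, had the highest fold change of the list, with 30.8, 37.3 and 35.9 FPKM in the Sg-C3 libraries, against 29.4, 3.30 and 2.99 FPKM in the Sg-Con libraries. Sg-Con replicate 1 stood close to the Sg-C3 libraries (log2 fold change 2.14, limma adjusted p = 0.0453), and the log2 fold change was 3.10 when it was left out. The Spic call was lost with no filter, with title style as a covariate and when any library other than Sg-Con replicate 1 was left out (limma adjusted p between 0.0567 and 0.125). Counts in this list moved with single libraries, to 2 higher genes when Sg-C3 replicate 1 or 2 was left out and 3 when Sg-Con replicate 2 was, and to 3 lower genes when Sg-C3 replicate 1 or Sg-Con replicate 2 was left out.

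Terms deposited with the table were shared by a few of the 9 genes that carry any. Glycosaminoglycan binding was given to Lyve1, Pf4 and Stab1 and to 1.16% of 8393 annotated genes, cargo receptor activity to Cd163 and Stab1 and to 0.262%, and hemostasis to F13a1 and Pf4 and to 1.17% of 8903 annotated genes.

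The labelled cell type was checked against 10 macrophage markers, all present in the table, which summed to between 7948 and 9881 FPKM in Sg-C3 and between 13704 and 15574 FPKM in Sg-Con. Adgre1, which encodes F4/80, had 172 ± 29.8 FPKM in Sg-C3 and 173 ± 11.6 FPKM in Sg-Con, and Csf1r, Fcgr1, Cd14 and C1qa were among those not called either, while Lyz2, Cd68, Itgam and Mertk were lower. Monocyte markers summed to between 623 and 790.4 FPKM in Sg-C3 and between 756 and 1321 FPKM in Sg-Con. Of the 10, 5 were higher (12.7% of all tested genes) and 4 lower (31.7% of all). Dendritic cell markers summed to between 46.5 and 72.4 FPKM in Sg-C3 and between 13.7 and 19.3 FPKM in Sg-Con, and NK cell markers to between 29.7 and 35.4 FPKM in Sg-C3 and between 1.45 and 4.02 FPKM in Sg-Con. T cell markers summed to between 14.6 and 22.1 FPKM in Sg-C3 and between 2.29 and 5.79 FPKM in Sg-Con. Both tested markers, Cd4 and Cd3g, were higher, but Cd3g passed the filter through its Sg-C3 values alone. Without a filter, 5 of the 7 T cell markers in the table were higher and 0 lower, where 1551 of all 15487 genes were higher and 3422 lower. Among the rest, Cd3e averaged 1.07 FPKM in Sg-C3 and 1.19 FPKM in Sg-Con. Fibroblast markers summed to between 143 and 208 FPKM in Sg-C3 and between 67.5 and 93.3 FPKM in Sg-Con. Most of the Sg-C3 sum was Dcn, at 114 ± 25.5 FPKM in Sg-C3 and 21.9 ± 5.96 FPKM in Sg-Con. Of 8 tested fibroblast markers, 4 were higher (12.7% of all tested genes) and 2, Col1a2 and Thy1, lower (31.7% of all). Blood endothelial markers summed to between 61.1 and 79.9 FPKM in Sg-C3 and between 12.4 and 19.0 FPKM in Sg-Con. Most of the Sg-C3 sum was Pecam1. Of the 3 tested, Pecam1 was higher, Kdr was not called and Cdh5 was lower. Cdh5 passed the filter through its Sg-Con values alone. The part of these cells in the difference of the 10 genes was not tested. Depth, estimated from the steps between low values, was 17.6 to 19.3 megareads per library.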

How the data were processed

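RNA of sorted tumour-associated macrophages was sequenced in 6 libraries, 3 from Sg-C3 and 3 from Sg-Con tumours, grouped by the source labels. The authors deposited FPKM values per gene with 2 decimals, named so per the file headers, with no counts. Per the labels' protocols, RNA was taken with Trizol, and both a TruSeq and an MGIEasy kit are named. Bowtie 0.12.2 and build mm8 are listed, per the submitters' processing notes. The sources used here name neither the FPKM tool nor whether counting used strand.

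From these values, every gene reaching 1 FPKM in 3 or more libraries was fitted after a log2 transform with a pseudocount of 1, using lmFit and eBayes (trend) of limma 3.58.1 under R 4.3.3, with Benjamini-Hochberg adjustment over all 11198 tested genes and calls at an adjusted p below 0.05. The fit was tested on simulated data with known changes. The 10 genes and the other lists were chosen with earlier results of these data known. Genes named from a list are up to 4 called genes at either end of its fold changes, and others named beside them were chosen after their values were seen. Lists overlap (Lrp1, Hmox1, Maf, Mrc2 and Ly75 are in more than 1). A gene of these lists is not reported here by name. Of 15487 table rows, 15440 gene identifiers were found in the RefSeq table, and 23 symbols turned into dates were restored from them. Promoters are from RefSeq on GRCm38.p6, another build than mm8, and letters were searched there only. Depth was estimated from short non-coding genes after taking 36 bases from their length, where 87.8% to 93.8% of 160 to 187 low values per library were whole numbers of reads within 0.1 read. Figures and tables were made with Python 3.11.15, pandas 2.3.3, numpy 2.4.6 and matplotlib 3.10.9.

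Alternatives were a pseudocount of 0.1, no filter, a mean of at least 5 FPKM, quantile normalization, median-ratio scaling, the style of sample titles as a covariate, array weights, and leaving out each library.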

Additional observations from a re-analysis of the deposited data

How the results depend on the processing

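The log2 fold change of each of the 10 genes stayed negative under every alternative run, between -4.82 and -4.08 for Cbr2 and between -2.64 and -2.21 for Mrc1. The split of all calls depended on scaling, with 71.5% lower as deposited, 56.9% with quantile normalization and 47.3% with median-ratio scaling, where the median of all tested genes was -0.16, -0.06 and 0.00. With 1 library left out, limma called between 2780 (without Sg-C3 replicate 2) and 5062 genes, against 4972 with all, and 3293 without Sg-C3 replicate 1. In the same runs, higher calls ranged from 3 to 5 for other resident macrophage genes, 3 to 5 for other scavenger receptors, 3 to 6 for family relatives, 0 to 1 for heme handling genes, 2 to 7 for regulators and 1 to 2 for neighbouring genes, and lower calls of regulators from 3 to 7. A mean of at least 5 FPKM gave 2 higher scavenger receptors, 3 higher relatives and 1 higher neighbour, with fewer genes tested. Quantile normalization gave 0 higher heme genes, median-ratio scaling 3 lower regulators, and title style as a covariate 5 higher regulators, and the cause was not tested. In the 250 bases before the start, 1 promoter held TGCTGAC and 0 held STAT6 spacing, since the other matches lie after the start. Leaving out 1 library assumes that a group of 2 varies like the other. No paired analysis was possible because the titles of the groups share no replicate numbers. Values near 1 FPKM, such as those of Lyve1 in Sg-C3, rest on few reads.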

Other observations

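Genes next to the 10 genes on their chromosomes were looked up in the RefSeq table of GRCm38, a choice made after seeing the data. Of 20 neighbours, 17 were in the expression table and 13 were tested, 8 lower, 2 higher and 3 not called, where 31.7% of all tested genes were lower and 12.7% higher. Their median log2 fold change was -0.88, and 5 were at -1 or lower, as were 3.80% of all tested genes. Nt5dc2, beside Stab1, had 13.4, 9.31 and 15.1 FPKM in the Sg-C3 libraries, against 42.7, 46.8 and 41.9 FPKM in the Sg-Con libraries (log2 fold change -1.74, limma adjusted p = 0.00133). Rnf141, beside Lyve1, fell to 5.39 ± 1.34 FPKM in Sg-C3, against 18.9 ± 3.46 FPKM in Sg-Con (log2 fold change -1.65, limma adjusted p = 0.00189). Tmem141, beside Fcna, and Slc39a12, beside Mrc1, had log2 fold changes of -1.15 and -1.08, and Slc39a12 passed the filter through its Sg-Con values alone. Ppbp, beside Pf4, and Dcxr, beside Cbr2, are described with their families. The 2 higher neighbours were Ly86, beside F13a1 (log2 fold change 0.96, limma adjusted p = 0.0365), and Kirrel, beside Fcrls (0.92, limma adjusted p = 0.00323). Whether reads of a gene and an overlapping neighbour were told apart by strand is not stated in the labels.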
